A study of Mus musculus with 12 samples.

Results

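LN (lymph node) CD8 T cells of FlipFlop mice were compared with LN CD8 T cells of B6 mice. The comparison used 6 of the 12 RNA libraries of the series, 3 of each group, and a gene was taken when it reached 1 CPM (counts per 1e6 reads, scaled per library) in at least 3 of these 6 libraries. Of the 12809 genes measured, 11368 met this rule and 1441 did not. The genes at the edge of the rule were *Gm5417* and *Car11*, whose lowest of the 3 highest libraries stood at 1.0002 CPM, and, just outside it, *Gm6483* at 0.99881 CPM and *Cdh13* at 0.99639 CPM. B6 mice were C57BL/6 females of 10 weeks. FlipFlop mice were females of 14 weeks that carried, on both copies of chromosome 6, *Cd8a* alleles that encode CD4 and *Cd4* alleles that encode CD8αβ.1, joined on a crossover chromosome and marked by a neomycin-resistance cassette. The *Cd8a* alleles came from an earlier line named 4in8, made in the 129R1 embryonic stem cell line, and strain 129 genes remain in FlipFlop mice, while the *Cd4* alleles were built in B6 embryonic stem cells (8in4). The other 6 libraries were from CD4 T cells of the same 2 strains. Allele, strain, age and remaining linked sequence go together in this design and cannot be told apart.

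The question was what CD8 T cells express when the surface coreceptor is the same but the gene that encodes it is not. In B6 mice CD8 is made from the *Cd8a* and *Cd8b1* genes and marks cytotoxic-lineage T cells that recognize MHC-I, whereas CD4 is made from *Cd4* and marks helper-lineage T cells that recognize MHC-II. The zinc-finger factor ThPOK, encoded by *Zbtb7b*, holds T cells in the helper lineage, and the Runx3 factor holds them in the cytotoxic lineage and silences *Cd4*. Helper-lineage T cells include regulatory T cells, which depend on the transcription factor Foxp3, and follicular helper T cells, which aid B cells. Cytotoxic-lineage T cells store perforin and granzymes for killing.

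Libraries held 26600000 to 33100000 reads on the listed genes, and 3 reads were worth 0.0857 to 0.120 CPM. Replicates were close to each other, since libraries of the same CD8 group lay 0.235 to 0.304 apart (root mean square of log2 differences over the genes tested) and libraries of different CD8 groups 0.845 to 0.880. FlipFlop CD8 replicate 1 stood apart from replicates 2 and 3 in cytotoxic and effector genes, so the counts of those lists and several of their genes are given with and without it. The deposited values carry a scaling factor for each library. Without that factor all differences moved up by a median of 0.23 on the log2 scale, and 79.9% of the genes that passed were higher in FlipFlop CD8 T cells instead of 47.5%, so directions of small differences rest on the scaling and are marked below where they turn. The labels do not say that replicates were separate mice, so p-values measure the spread between these libraries, which may be technical. In sorted bulk samples, fewer cells of a type and less RNA per cell cannot be told apart.

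The coreceptor genes were read first, because *Cd4* and *Cd8a* were the engineered loci. *Cd8a* (GRCm38 chr6:71373427-71379173) had 1496, 1499.6 and 1472 CPM in the 3 B6 CD8 libraries and 159, 139 and 138 CPM in the 3 FlipFlop CD8 libraries. *Cd8b1* (chr6:71322788-71337494) had 1893, 1924 and 1839 CPM against 151, 136 and 125 CPM. *Cd4* (chr6:124864692-124888221) had 2.40, 0.600 and 1.39 CPM in B6 CD8 against 40.9, 42.2 and 43.6 CPM in FlipFlop CD8. The groups overlapped at none of these genes. *Cd8a* fell by 3.36 on the log2 scale (SE 0.21, adjusted p = 1.06e-07), *Cd8b1* fell by 3.78 (SE 0.11, adjusted p = 2.29e-10) and *Cd4* rose by 4.55 (SE 0.24, adjusted p = 2.61e-08). Adjusted p-values here and below are from limma with Benjamini-Hochberg adjustment over all 11368 genes. Reads of the inserted coding sequences can be counted at the gene models of *Cd4*, *Cd8a* and *Cd8b1*, so the origin of these reads cannot be told apart. In FlipFlop CD4 T cells, *Cd8b1* averaged 1829 CPM ± 169 (SD, n = 3) and *Cd4* 669.7 CPM ± 43.6.

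**Figure D1:**
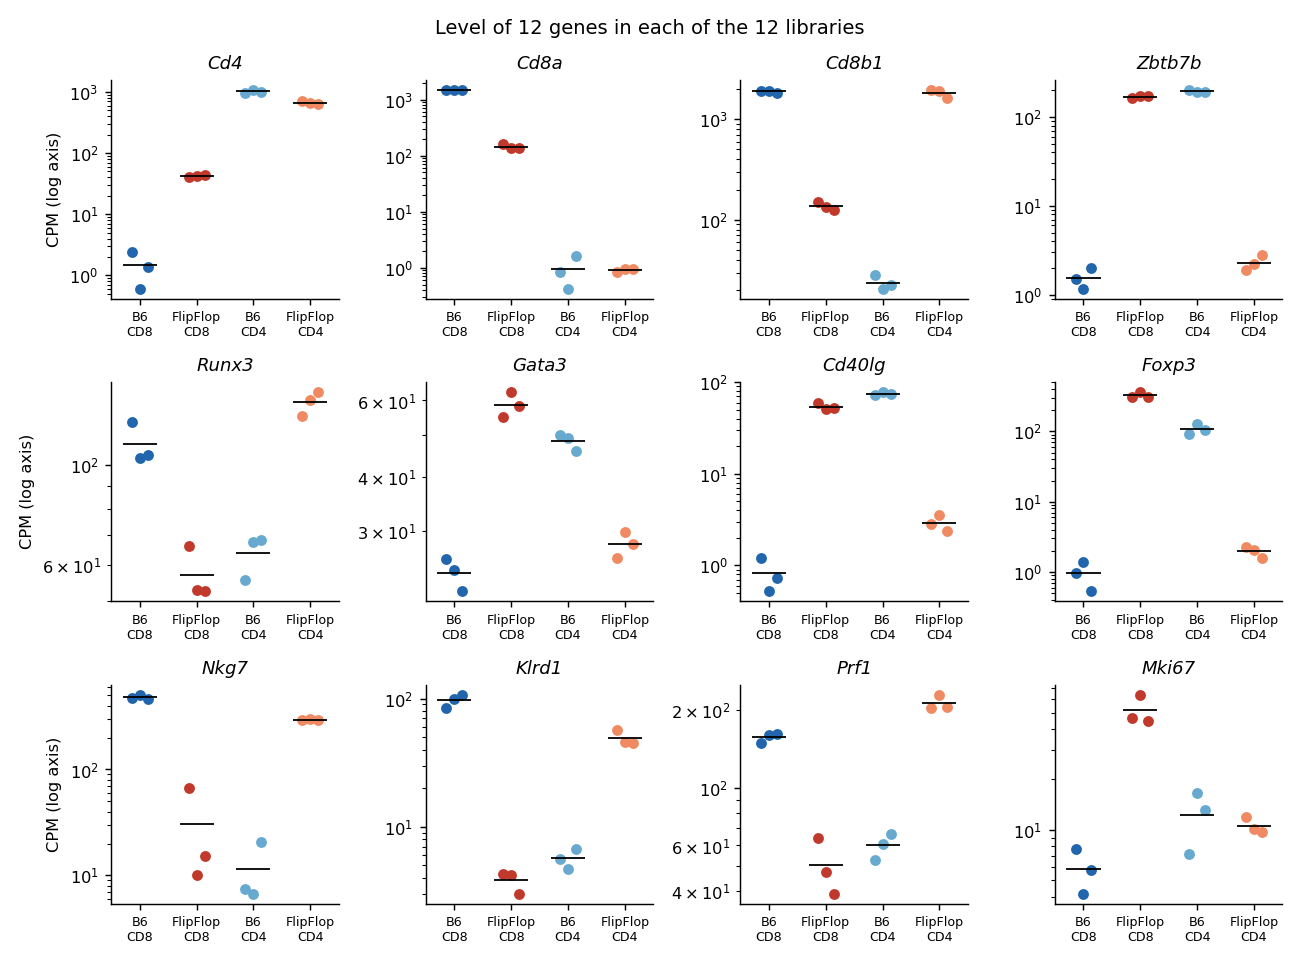
Level in CPM (log axis) of 12 genes in each of the 12 libraries, as 1 point per library with a bar at the group mean (n = 3). *Zbtb7b*, *Foxp3* and *Cd40lg* are at or above 51.3 CPM in FlipFlop CD8 and B6 CD4 T cells, with *Foxp3* higher in FlipFlop CD8. *Nkg7*, *Klrd1* and *Prf1* of FlipFlop CD8 T cells lie below all B6 CD8 libraries.

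A gene was called when it differed more than 5-fold with p under 0.0001 (limma, unadjusted). FlipFlop and B6 CD8 T cells differed in 344 genes by this rule, which is 3.03% of the genes tested. Of these, 283 (2.49%) were higher and 61 (0.537%) were lower in FlipFlop CD8 T cells, and in all 344 the libraries of the groups did not overlap, which the call rule all but fixes (over all genes tested the share was 60.7%, 28.4% with FlipFlop CD8 higher and 32.3% with it lower). At an adjusted p under 0.05, the test passed for 5135 genes (45.2%), 2438 (21.4%) higher and 2697 (23.7%) lower. Below, "rose" and "fell" mean an adjusted p under 0.05 in FlipFlop CD8 minus B6 CD8. Over all genes tested 21.4% thus rose and 23.7% fell, the shares to set beside each list count below. For called members the shares are 2.49% higher and 0.537% lower. The median difference of all genes tested was -0.02 on the log2 scale, and that of the called genes was 3.07 among the higher and -3.005 among the lower. In 77 called genes the lower group averaged 3 reads or fewer, so their size is not resolved at this depth. The largest fitted difference of all, 8.20 (SE 1.44), belonged to the pseudogene *Gm8210*, which was at 0 in every B6 CD8 library and at 382, 138 and 59.0 CPM in FlipFlop CD8, and which missed the limit of 0.0001 (adjusted p = 0.000605).

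**Figure D2:**
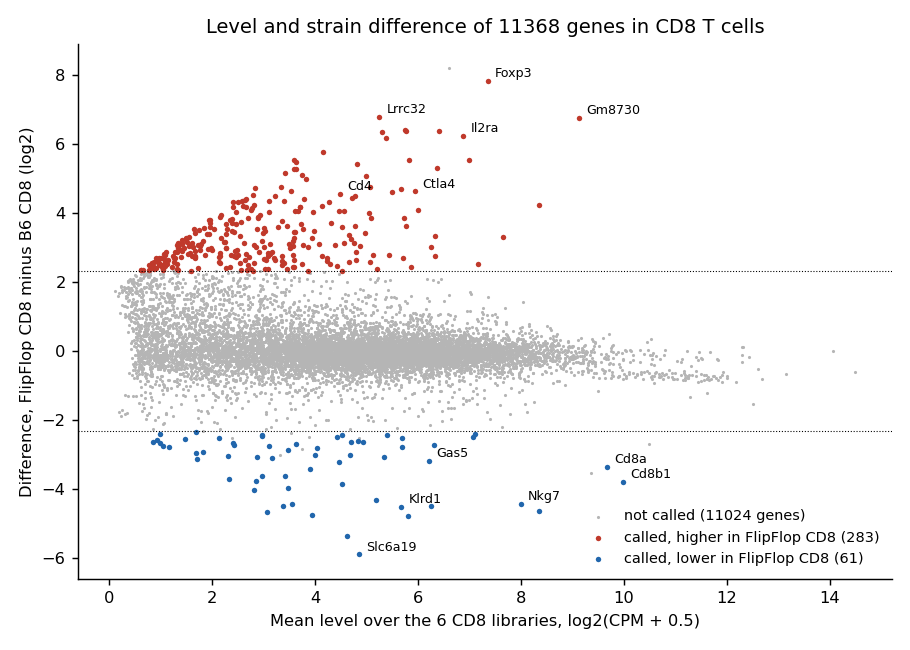
Mean level over the 6 CD8 libraries, as log2(CPM + 0.5), against the FlipFlop CD8 minus B6 CD8 difference (log2) of 11368 genes, with dotted lines at 5-fold. Called genes are 283 higher (red) and 61 lower (blue), with *Foxp3* at 7.84 and *Slc6a19* at -5.89.

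Of the 26 transcription factors of lineage choice, 10 rose and 5 fell, with a list median of 0.06 on the log2 scale. With the scaling factor taken out 12 rose and 3 fell, and in the 6 CD8 libraries alone 8 fell. *Zbtb7b*, which encodes ThPOK, was at 1.498, 1.16 and 1.99 CPM in B6 CD8 and at 162, 171 and 172 CPM in FlipFlop CD8. It rose by 6.38 (SE 0.14, adjusted p = 1.97e-11), a 109-fold ratio of the mean CPM. B6 CD4 T cells had 196 CPM ± 5.99 (n = 3), and FlipFlop CD8 T cells did not differ from them by a margin that passed (log2 -0.22, adjusted p = 0.247). *Runx3* had 124, 104 and 105 CPM against 66.2, 52.9 and 52.6 CPM and fell by 0.96 (adjusted p = 2.37e-05). *Runx3* was therefore lower but not absent, as 57.2 CPM ± 7.80 in FlipFlop CD8 stood beside 63.9 CPM ± 7.15 in B6 CD4. *Gata3*, the factor of type 2 helper cells that also acts early in the helper lineage, rose by 1.27 from 25.9, 24.4 and 21.8 to 54.9, 62.7 and 58.3 CPM (adjusted p = 1.62e-07). *Runx1*, another member of the Runx family, rose by 1.45 (adjusted p = 9.27e-06) from 39.1 CPM ± 1.02 to 107.5 ± 5.70. B6 CD4 T cells had 88.8 CPM ± 22.1 of *Runx1*, and FlipFlop CD8 T cells did not pass against them (log2 0.31, adjusted p = 0.145).

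Factors of the effector program changed unevenly. *Eomes*, a T-box factor of cytotoxic cells, had 63.7, 72.2 and 71.4 CPM in B6 CD8 against 21.1, 7.41 and 12.03 CPM in FlipFlop CD8, and fell by 2.43 (adjusted p = 5.94e-05), or by 2.80 without FlipFlop CD8 replicate 1. The related factor *Tbx21* (T-bet) had 24.2, 24.3 and 25.2 CPM against 22.4, 9.23 and 10.3 CPM. Its difference of -0.90 did not pass with all 12 libraries in the fit (adjusted p = 0.0836). It passed with the 6 CD8 libraries fitted alone (adjusted p = 0.0237) and, at -1.29, without FlipFlop CD8 replicate 1 (adjusted p = 0.0198). *Prdm1*, which encodes the effector and regulatory factor Blimp-1, rose by 2.76 from 2.19 CPM ± 0.701 to 17.4 ± 1.55 (adjusted p = 1.17e-06). *Id2* rose by 0.75 (adjusted p = 4.97e-05). *Lef1*, a partner of *Tcf7* in naive cells and in thymic lineage choice, fell by 0.47 (adjusted p = 8.85e-05), whereas *Tcf7* itself was at 1249 CPM ± 33.7 and 1290.1 ± 60.2 with a difference of 0.05 (adjusted p = 0.641) that passed as a rise with the scaling factor taken out. *Maf*, a factor of helper and follicular helper cells, rose by 6.17 from 0.374, 0.680 and 0.895 to 80.0, 85.0 and 78.3 CPM.

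Of 20 helper surface and ligand genes, 15 rose, 1 fell and 4 did not pass, with a median of 1.54. *Cd40lg*, the ligand by which helper T cells license B cells and dendritic cells, had 1.20, 0.520 and 0.729 CPM in B6 CD8 and 58.6, 51.3 and 52.8 CPM in FlipFlop CD8. The groups did not overlap, and the difference was 5.41 (SE 0.17, adjusted p = 3.76e-10). *Tnfrsf4*, which encodes the costimulatory receptor OX40, rose by 6.40 from 0.749, 0.720 and 0.795 to 110.4, 109 and 97.3 CPM. *Tnfsf11*, which encodes RANKL, rose by 4.18 from 0.868 ± 0.207 to 24.1 ± 0.955 CPM. *Cd28* rose by 1.43 and *Icos* by 2.53, both costimulatory receptors for B7 family ligands.

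Several cytotoxic and helper genes are shown with the 250 bases before a start that RefSeq gives, because Runx factors bind the letters TGTGGT and *Runx3* fell here while *Runx1* rose. The sequences are RefSeq windows on GRCm38, before the most upstream of the starts that the RefSeq promoter table lists for each gene and 5′ to 3′ on the gene's strand, and capitals mark TGTGGT or its reverse complement ACCACA. By the GENCODE gene models the windows of *Foxp3* and *Zbtb7b* lie wholly inside the gene, downstream of its first annotated base, and those of *Nkg7*, *Plac8* and *Prf1* overlap it by 65, 40 and 3 bases. The 6 genes were picked after their matches were seen, 4 that fell and 2 that rose, and a match is a description and not a bound site.
Nkg7 (chr7:43436888-43437137, + strand): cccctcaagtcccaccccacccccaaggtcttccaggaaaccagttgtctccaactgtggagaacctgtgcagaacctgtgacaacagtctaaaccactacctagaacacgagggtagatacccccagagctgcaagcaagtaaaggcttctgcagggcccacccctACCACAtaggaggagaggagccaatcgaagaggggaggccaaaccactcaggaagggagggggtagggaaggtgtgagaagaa
Prf1 (chr10:61297586-61297835, + strand): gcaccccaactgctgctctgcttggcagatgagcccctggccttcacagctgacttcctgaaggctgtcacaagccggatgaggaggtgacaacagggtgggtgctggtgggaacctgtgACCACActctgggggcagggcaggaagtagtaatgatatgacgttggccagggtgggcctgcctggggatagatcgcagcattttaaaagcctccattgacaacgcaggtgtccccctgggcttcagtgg
Plac8 (chr5:100572206-100572455, - strand): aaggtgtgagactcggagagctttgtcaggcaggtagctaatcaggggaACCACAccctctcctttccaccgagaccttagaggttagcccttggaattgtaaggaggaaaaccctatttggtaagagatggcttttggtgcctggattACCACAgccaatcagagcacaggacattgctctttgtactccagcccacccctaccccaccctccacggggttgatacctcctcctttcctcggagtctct
Adgrg5 (chr8:94923444-94923693, + strand): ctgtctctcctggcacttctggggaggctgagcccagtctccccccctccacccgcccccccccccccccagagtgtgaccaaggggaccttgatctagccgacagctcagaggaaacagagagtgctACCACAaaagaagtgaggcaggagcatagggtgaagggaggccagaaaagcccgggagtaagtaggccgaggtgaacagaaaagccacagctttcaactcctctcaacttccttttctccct
Zbtb7b (chr3:89393379-89393628, - strand): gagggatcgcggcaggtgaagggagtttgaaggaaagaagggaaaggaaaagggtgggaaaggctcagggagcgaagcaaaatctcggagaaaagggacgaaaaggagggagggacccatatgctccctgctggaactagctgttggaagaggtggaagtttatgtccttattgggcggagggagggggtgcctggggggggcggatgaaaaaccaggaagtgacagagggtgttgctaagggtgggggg
Foxp3 (chrX:7579426-7579675, + strand): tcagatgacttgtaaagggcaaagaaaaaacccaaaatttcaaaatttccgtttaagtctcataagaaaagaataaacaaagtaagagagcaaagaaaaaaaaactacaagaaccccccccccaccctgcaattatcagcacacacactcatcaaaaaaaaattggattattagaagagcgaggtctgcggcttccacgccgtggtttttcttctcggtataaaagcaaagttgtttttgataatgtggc
The match begins 83 bases before the start in *Nkg7*, 130 in *Prf1* and 122 in *Adgrg5*, and *Plac8* has a pair of them, while the windows of *Zbtb7b* and *Foxp3* hold none. Windows were found for 196 of the 283 genes called higher, for 47 of the 61 called lower and for 8652 of 11359 symbols tested. TGTGGT on either strand was present in 13 of the 47 windows of genes called lower (27.7%), in 23 of the 196 called higher (11.7%), in 10.9% of all genes tested and in 14.2% of all RefSeq promoter windows. Of 6 other motifs searched on both strands, the AP-1 letters TGANTCA were present in 8.67% of windows called higher, in none of those called lower and in 3.73% of genes tested. The T-box letters GGTGTGA were present in 1.53%, 10.6% and 2.8% of these sets, and the TCF-LEF letters CTTTGAT in 0%, 8.51% and 2.24%. The GATA letters AGATAA gave 6.63%, 10.6% and 5.7%, the STAT letters TTCNNNGAA 6.63%, 8.51% and 5.89%, and the NF-kB motif 4.08%, 4.26% and 1.51%. Among all RefSeq promoter windows the shares were 6.85% for AP-1, 3.31% for T-box, 3.26% for TCF-LEF, 10.2% for GATA, 7.14% for STAT and 1.41% for NF-kB. No motif contains the letters of another, and these shares carry no test.

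Of 25 cytotoxic effector genes, 11 fell and 6 rose, with a median of -0.46. Taking the scaling factor out gave 10 that rose and 9 that fell, so the balance of this list is not a direction, and without FlipFlop CD8 replicate 1, 4 rose and 12 fell. Without B6 CD8 replicate 1, 3 rose. The falls that passed were led by receptors and granule genes. *Nkg7*, a granule membrane protein needed for killing, had 469.6, 509 and 461 CPM in B6 CD8 against 67.3, 10.1 and 15.1 CPM in FlipFlop CD8 and fell by 4.42 (SE 0.55, adjusted p = 4.2e-05). Without FlipFlop CD8 replicate 1 it fell by 5.22. *Prf1*, which encodes perforin, had 149, 160.1 and 162 CPM against 64.4, 47.6 and 39.1 CPM and fell by 1.66 (adjusted p = 1.94e-06). B6 CD4 T cells had 60.0 CPM ± 6.88 of *Prf1*. *Ctsw*, a lysosomal cysteine protease of killer cells, fell by 2.48 from 225 ± 14.7 to 40.6 ± 9.92 CPM. *Xcl1*, the chemokine that attracts cross-presenting dendritic cells, fell by 2.44 from 12.7 ± 0.850 to 1.93 ± 0.325 CPM. *Crtam*, an adhesion receptor of cytotoxic T cells, fell by 2.02 from 55.3 ± 2.36 to 13.5 ± 3.14 CPM. Without FlipFlop CD8 replicate 1 the differences of these genes were -1.85 for *Prf1*, -2.67 for *Ctsw*, -2.50 for *Xcl1* and -2.19 for *Crtam*, and each still passed.

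Granzyme and ligand genes differed in direction. *Gzmm* had 15.2, 17.5 and 11.9 CPM in B6 CD8 against 20.1, 0.364 and 0.886 CPM in FlipFlop CD8, so the groups overlapped through replicate 1. Its difference was -2.38 (adjusted p = 0.0375), and -3.79 without that library. It did not pass when any other single CD8 library was left out (-2.53 to -1.51, adjusted p = 0.0661 to 0.163) or with the scaling factor taken out (adjusted p = 0.051). *Gzmb* had 1.54, 1.92 and 5.67 CPM against 8.9997, 10.3 and 7.54 CPM and rose by 1.59 (adjusted p = 0.0121), a call that was lost without B6 CD8 replicate 1 or replicate 2. *Gzmk* had 1.39, 1.24 and 2.52 CPM against 18.9, 2.41 and 6.97 CPM, and its difference of 1.80 (adjusted p = 0.034) did not pass without FlipFlop CD8 replicate 1 (1.12, adjusted p = 0.137) or 3 (adjusted p = 0.0778) or without B6 CD8 replicate 1 (adjusted p = 0.0861) or 2 (adjusted p = 0.0997). *Fasl*, the death ligand, rose by 1.96 from 1.78 ± 0.369 to 8.43 ± 1.91 CPM. *Stx11*, a syntaxin of granule release, rose by 3.11 from 3.09 ± 1.005 to 29.7 ± 1.24 CPM, and without FlipFlop CD8 replicate 1 *Fasl* rose by 1.80 and *Stx11* by 3.07. *Ccl5* had 82.2, 106 and 119 CPM against 164, 15.3 and 35.8 CPM, and its difference was -1.16 (adjusted p = 0.186) with all libraries and -2.09 (adjusted p = 0.00549) without FlipFlop CD8 replicate 1. Without that library, 12 of the 25 genes fell and 4 rose, and 3 rose without B6 CD8 replicate 1.

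Killer cell lectin-like receptors, through which killer cells sense MHC-I and related ligands, fell in 6 of 10 genes and rose in 3, with a median of -1.999, and without FlipFlop CD8 replicate 1, 6 fell and 2 rose. *Klrd1*, the CD94 chain shared by NKG2 receptors, had 84.6, 99.0 and 107 CPM in B6 CD8 against 4.27, 4.17 and 3.001 CPM in FlipFlop CD8. It fell by 4.50 (SE 0.16, adjusted p = 9.78e-10), a 25.4-fold ratio. *Klra6*, *Klra7* and *Klre1* averaged 3.08, 3.47 and 2.84 CPM in B6 CD8 and were at or near 0 in FlipFlop CD8, where *Klra6* and *Klra7* had reads in replicate 1 only, so no ratio is given. *Klrg1*, a receptor of effector cells and of some regulatory T cells, went the other way. It had 0.0374, 0.0800 and 0.364 CPM against 46.3, 14.7 and 15.4 CPM and rose by 5.12 (adjusted p = 8.49e-07), and by 4.59 without FlipFlop CD8 replicate 1. *Klrb1c* (NK1.1) rose by 2.13 from 2.18 ± 0.898 to 10.8 ± 0.848 CPM.

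The 10 largest falls among called genes with no overlap between groups and at least 10 CPM in the higher group were *Klrd1* and the genes that follow, of which *Ly6c2* and *Plac8* also belong to the lists. *Slc6a19*, a neutral amino acid transporter, had 55.2, 53.4 and 59.3 CPM in B6 CD8 against 0.418, 0.893 and 0.171 CPM and fell by 5.89 (SE 0.31, adjusted p = 2.13e-08). *Bend4*, of the BEN domain family, had 46.3, 46.6 and 49.6 CPM against 0.771, 0.529 and 0.714 CPM and fell by 5.36 (SE 0.11). *Gm43698*, a gene model close to *Bend4* on chromosome 5, had 13.6, 14.4 and 18.5 CPM against 0.161, 0.165 and 0.0572 CPM. *Adgrg5*, an adhesion G protein-coupled receptor, fell by 4.77 from 108 ± 5.56 to 3.66 ± 1.68 CPM. *Ly6c2*, a marker of memory-type CD8 T cells, had 531, 642 and 704 CPM against 27.9, 17.6 and 30.3 CPM and fell by 4.63, whereas its neighbour *Ly6c1* had 0.731, 0.140 and 0.510 CPM against 99.4, 72.8 and 57.8 CPM and rose by 6.35. These *Ly6c* paralogs are near-identical in sequence, so how reads were shared between them is uncertain. *Plac8* fell by 4.49 from 117, 142 and 175 to 6.97, 5.36 and 5.34 CPM. The remaining falls of this size were *Bace1*, an aspartyl protease, from 21.7 to 0.550 CPM, *Lcn4*, a lipocalin, from 19.4 to 0.388 CPM, and *Tmem108*, a transmembrane protein, from 29.0 to 0.790 CPM.

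Regulatory T cell genes were the list with the highest median, 3.74, against -0.02 for all genes tested. Of 24 genes 22 rose, 19 of them past the 5-fold rule, 1 fell and 1 did not pass. Of all genes tested, 2.49% were called higher. The count of 22 that rose was the same when any CD8 library was left out and under the other scalings. *Foxp3* (chrX:7573644-7595245) had 0.974, 1.40 and 0.530 CPM in B6 CD8 and 305, 362 and 312 CPM in FlipFlop CD8. It rose by 7.84 (SE 0.20, adjusted p = 5.57e-11), a 337-fold ratio of the mean CPM. *Lrrc32*, which encodes the GARP receptor that displays latent TGF-β on regulatory T cells, had 0.225, 0.160 and 0.133 CPM against 62.8, 85.1 and 75.8 CPM and rose by 6.79 (SE 0.16). *Il2ra*, the high-affinity IL-2 receptor chain CD25, had 2.55, 1.84 and 3.54 CPM against 195, 251 and 249 CPM and rose by 6.23 (SE 0.17). In each of these genes the lowest FlipFlop CD8 library lay far above the highest B6 CD8 library.

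Receptors and nuclear factors of the regulatory list rose as well. *Ctla4*, the inhibitory receptor for B7 ligands, rose by 4.64 from 4.22 ± 0.446 to 117 ± 9.93 CPM. *Nrp1*, a receptor of thymus-derived regulatory T cells, rose by 5.54 from 1.88 ± 0.217 to 111 ± 4.74 CPM, and *Ikzf2*, which encodes their factor Helios, rose by 4.08 from 6.80 ± 2.20 to 121 ± 17.3 CPM. *Il1rl1*, the IL-33 receptor, had 0.0749, 0 and 0.166 CPM against 21.5, 21.96 and 17.6 CPM, and *Tigit* rose by 4.48 from 1.90 ± 0.719 to 51.9 ± 9.58 CPM. *Gpr83* rose by 3.85 and *Izumo1r*, the folate receptor 4 of regulatory and follicular helper cells, by 3.30. *Tnfrsf18*, which encodes GITR, was already at 47.6 CPM ± 1.32 in B6 CD8 and rose by 1.03. The member that fell was *Itgae*, the CD103 integrin chain that CD8 T cells also use to settle in epithelia, from 274, 232 and 169 to 86.1, 98.6 and 75.0 CPM (log2 -1.36, adjusted p = 0.00217).

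The regulatory genes were also set beside B6 CD4 T cells, whose comparison shares the FlipFlop CD8 libraries. FlipFlop CD8 T cells were above B6 CD4 T cells in 22 of the 24 genes and below in none, with a median of 1.08, where 13.6% of all genes were above and 14.7% below. Of the 283 genes called higher than in B6 CD8, 230 were above B6 CD4 T cells, 4 were below and 49 did not pass. Those genes were chosen on the same FlipFlop CD8 libraries, so nothing is read from that count. *Foxp3* averaged 326 CPM ± 31.1 in FlipFlop CD8 and 108 ± 18.1 in B6 CD4, a difference of 1.595 (adjusted p = 0.000203). The summed level of the list was 387.6 to 492 CPM in B6 CD8, 1049 to 1276 CPM in B6 CD4 and 2232 to 2416.7 CPM in FlipFlop CD8. Whether more cells or more RNA per cell carried this sum cannot be told apart in these libraries.

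**Figure D3:**
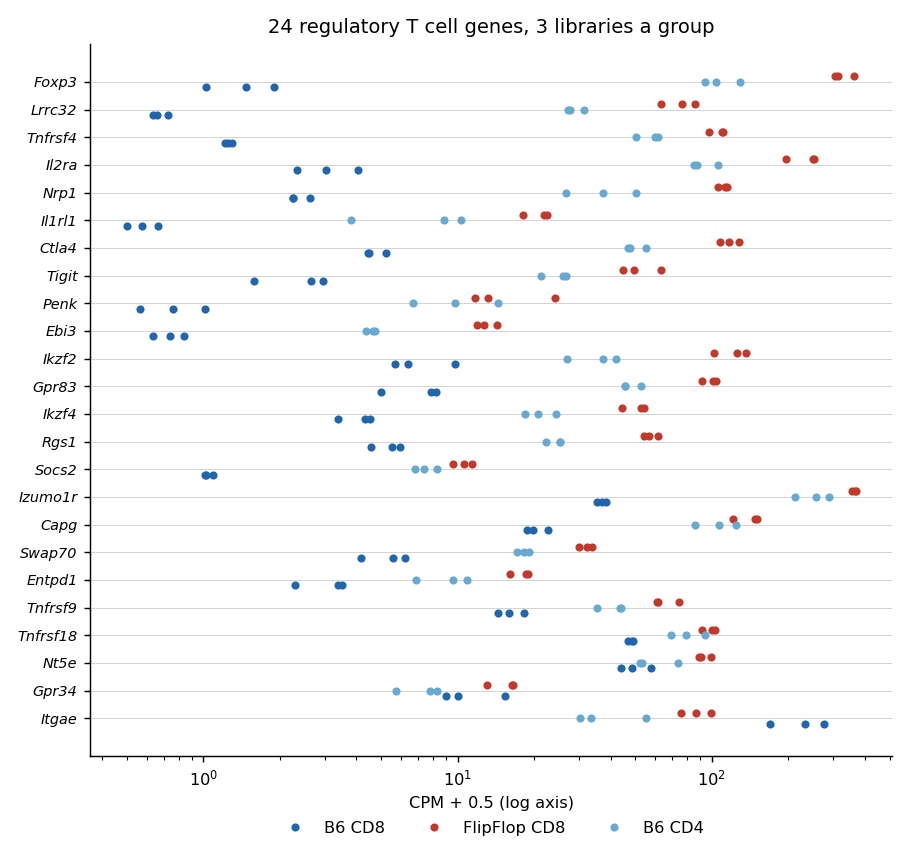
Level (CPM + 0.5, log axis) of 24 regulatory T cell genes in the 3 libraries each of B6 CD8 (dark blue), FlipFlop CD8 (red) and B6 CD4 (light blue), ordered by the FlipFlop CD8 minus B6 CD8 difference. *Foxp3* stands at 305 CPM or more in FlipFlop CD8 and at 1.40 CPM or less in B6 CD8, and *Itgae* is the member that fell.

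Of 18 follicular helper T cell genes 16 rose, 8 of them called, and none fell, with a median of 1.85. The share called higher was 2.49% over all genes tested. *Sostdc1* and *Il4* were at 0 in every B6 CD8 library, and with these genes at the bound that 3 reads in a library allow the median was 2.07. *Pdcd1*, the inhibitory receptor PD-1, had 1.16, 2.001 and 2.39 CPM in B6 CD8 against 55.4, 44.7 and 47.8 CPM and rose by 4.44 (SE 0.23, adjusted p = 1.77e-08). *Cxcr5*, the chemokine receptor for B cell follicles, had 27.0, 28.0 and 28.9 CPM against 105, 79.8 and 76.6 CPM and rose by 1.61 (adjusted p = 0.000101). *Bcl6*, the lineage factor of these cells, had 17.2, 15.7 and 22.2 CPM against 44.3, 36.9 and 39.2 CPM and rose by 1.12 (adjusted p = 1.25e-05). All B6 CD8 libraries lay below all FlipFlop CD8 libraries in the 3 genes. *Tox2* rose by 3.90 and *Cd200* by 2.71. *Sostdc1*, a secreted inhibitor of WNT and BMP signals, was at 7.91, 9.62 and 11.3 CPM in FlipFlop CD8 and so at least 80.1-fold higher.

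Of 12 T cell cytokine genes 7 rose and 2 fell, with a median of 0.29. *Il21*, the cytokine of follicular help, had 0.0374, 0 and 0.0331 CPM in B6 CD8 against 6.14, 3.51 and 6.23 CPM in FlipFlop CD8, with a fitted difference of 3.43 (adjusted p = 2.01e-07) over a group at the floor. *Il4* had 1.45, 1.62 and 1.80 CPM in FlipFlop CD8 and was at least 13.5-fold higher. *Csf1*, the macrophage growth factor, rose by 3.07 from 1.07 ± 0.712 to 11.9 ± 0.944 CPM. *Ifng* did not meet the rule for testing, with 0.337, 0.160 and 0.497 CPM in B6 CD8 and 3.25, 0.893 and 1.20 CPM in FlipFlop CD8.

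Memory and effector genes rose in 15 of 28 and fell in 5 (median 0.60), and without FlipFlop CD8 replicate 1 in 14 and 7. *Cd44*, the adhesion receptor of activated and memory cells, rose by 1.64 from 42.6, 51.0 and 47.0 to 159.6, 148 and 134 CPM. *S100a4*, a calcium-binding protein of memory cells, rose by 4.62 from 2.96 ± 0.816 to 86.0 ± 28.9 CPM, and *S100a6* by 2.86. Naive genes fell in 10 of 19 and rose in none (median -0.30), or fell in 9 and rose in 3 with the scaling factor taken out. *Dapl1* fell by 2.13 from 122 ± 7.98 to 27.5 ± 3.08 CPM, *Il7r*, the receptor for the survival cytokine IL-7, by 0.62, and *Igfbp4* by 0.85, a call lost without B6 CD8 replicate 2 (-0.73, adjusted p = 0.0509).

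Of 31 chemokine and homing receptors 16 rose and 8 fell (median 0.49), or 18 and 5 with the scaling factor taken out. Beside them, 21.4% of all genes tested rose and 23.7% fell. *Ccr9*, the receptor for the thymic and gut chemokine CCL25, had 232, 239 and 227 CPM in B6 CD8 against 40.3, 48.1 and 42.4 CPM and fell by 2.40 (SE 0.15, adjusted p = 9.85e-08). *Cxcr6*, a receptor of tissue-homing effector cells, had 246, 252 and 245 CPM against 94.8, 67.3 and 61.5 CPM and fell by 1.75 (adjusted p = 9.94e-05). The groups did not overlap in either gene. *Ccr4* rose by 4.76 from 1.89 ± 0.345 to 64.5 ± 10.4 CPM, *Ccr6* by 4.41 from 0.721 ± 0.122 to 25.6 ± 4.99 CPM, and *Ccr8* by 3.85 from 0.335 ± 0.0927 to 11.5 ± 1.76 CPM, receptors that helper and regulatory T cells use for skin and mucosa. *Ccr2*, an inflammatory receptor, rose by 2.65. *Ccr3* had 0.112, 0 and 0 CPM against 4.21, 4.46 and 4.97 CPM.

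Cytokine receptors and their signal transducers rose in 15 of 41 genes and fell in 8 (median 0.09), or rose in 20 and fell in 3 with the scaling factor taken out, and fell in 5 without FlipFlop CD8 replicate 3 or B6 CD8 replicate 2. Over all genes tested the shares were 21.4% that rose and 23.7% that fell. Apart from *Il2ra* and *Il1rl1*, the largest rises were *Il1r2*, the decoy receptor for IL-1, from 0.112, 0.0800 and 0.0994 to 27.5, 21.7 and 20.1 CPM, and *Il9r*, which rose by 4.03 from 0.484 ± 0.0685 to 15.8 ± 3.18 CPM. B6 CD8 T cells were at the floor of 3 reads for *Il1r2*.

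Of 39 genes of the TCR complex and its proximal signaling 9 rose, 13 fell and none was called, the median was -0.01 with members from -1.05 to 2.01, and taking the scaling factor out gave 17 that rose and 9 that fell. The 9 that rose stand beside 21.4% of all genes tested, and the 13 that fell beside 23.7%. *Cd3e*, an invariant chain of the TCR complex, had 406, 378 and 365 CPM in B6 CD8 against 362, 339 and 336 CPM, so the groups did not overlap, and a difference of -0.15 that did not pass (adjusted p = 0.107) and was 0.085 without the scaling factor. *Trat1*, a TCR-associated adaptor, rose by 2.01 from 33.0 ± 5.98 to 133 ± 8.23 CPM. *Sla2*, an adaptor that dampens TCR signals, fell by 1.05, the kinase *Tec* by 0.85, and *Themis*, a signaling protein of thymic selection, by 0.76.

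Genes whose level reports TCR signals were higher, as 12 of 19 rose and 2 fell (1 with the scaling factor taken out) with a median of 0.73. *Cd5*, a surface receptor that dampens TCR signals, had 228, 213 and 201 CPM in B6 CD8 against 359, 348 and 357 CPM and rose by 0.73 (adjusted p = 1.34e-05). *Nr4a1*, an immediate target of TCR signals, had 17.9, 15.1 and 16.4 CPM against 77.3, 63.7 and 70.1 CPM and rose by 2.06 (adjusted p = 1.92e-08). *Irf4* rose by 2.11, *Egr2* by 1.06, and the phosphatase gene *Dusp4* by 3.06. *Cd69*, an early activation marker, had 59.3, 83.1 and 88.9 CPM against 69.6, 78.7 and 80.9 CPM and showed no difference that passed (log2 0.00, adjusted p = 0.98), a value whose sign turned without FlipFlop CD8 replicate 2 or 3 or B6 CD8 replicate 1. *Myc* fell by 0.53 (adjusted p = 0.00019). In the immediate early and stress list 6 of 19 rose and 6 fell, or 8 and 4 with the scaling factor taken out, with *Dusp1* up by 2.09, *Fosl2* down at -1.26, *Hspe1* at -0.84 and *Ier3* at -2.01.

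Cell cycle and DNA replication genes rose in 26 of 35 and fell in 2, with a median of 1.64 and 1 gene past 5-fold. With any single CD8 library left out the falls were 0 or 1, and with the scaling factor taken out 32 rose and 0 fell. *Mki67*, the marker of cycling cells, had 7.64, 4.16 and 5.73 CPM in B6 CD8 against 46.5, 63.9 and 44.6 CPM and rose by 3.06 (SE 0.27, adjusted p = 2.05e-06). *Rrm2*, which supplies nucleotides for DNA synthesis, rose by 2.23 from 7.09 ± 0.550 to 36.0 ± 10.0 CPM, *Top2a* by 1.64, and the cyclins *Ccna2* and *Ccnb2* by 2.12 and 2.11. *Pcna*, the sliding clamp of replication, had 179, 182 and 185 CPM against 166, 131 and 115 CPM and fell by 0.43 (adjusted p = 0.028), a call lost with the scaling factor taken out or without any single CD8 library other than FlipFlop CD8 replicate 1. FlipFlop CD8 T cells were also above B6 CD4 T cells in 28 of the 35 and below in 1, a comparison that shares their libraries.

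Class I MHC and peptide transport genes fell in 16 of 24 and rose in 4 (median -0.39), and 9 fell and 5 rose with the scaling factor taken out. The count that fell was 10 without FlipFlop CD8 replicate 2 and 9 without B6 CD8 replicate 3. *B2m*, the light chain of MHC-I, had 3801, 4147 and 4886 CPM in B6 CD8 against 3290.2, 1421 and 1345 CPM and fell by 1.20 (adjusted p = 0.0156). The drop was uneven over FlipFlop CD8 libraries, since replicate 1 lay close to the B6 values, and the FlipFlop CD4 library of the same number was also the high one, with 3873 CPM beside 1618 and 1685 CPM. Without FlipFlop CD8 replicate 1 the fall was 1.62, and the call was lost without FlipFlop CD8 replicate 2, FlipFlop CD8 replicate 3 or B6 CD8 replicate 3. *H2-M3* fell by 1.25 from 49.9 ± 6.09 to 20.6 ± 1.61 CPM. *H2-T10* had 16.9, 14.9 and 17.02 CPM against 147, 133 and 125 CPM and rose by 3.01 (SE 0.10). *H2-Q2* and *H2-T3* were at or under the floor of 3 reads in B6 CD8 and at 4.05 ± 0.305 and 1.67 ± 0.179 CPM in FlipFlop CD8. MHC genes form families of near-identical copies, so how reads were shared among them is uncertain. Of 44 interferon-stimulated genes 2 rose and 4 fell (median -0.25), or 4 and 1 with the scaling factor taken out, with 9 that fell without FlipFlop CD8 replicate 3 and 2 without FlipFlop CD8 replicate 1 or 2 or B6 CD8 replicate 3, the last of which left 4 that rose. Single libraries were high in some, as *Mx2* was at 1.16, 1.06 and 4.60 CPM in FlipFlop CD8 and *Oasl2* at 4.89, 0.198 and 13.2 CPM. In B6 CD8 *Mx2* was at 0.449, 0.520 and 0.861 CPM, below every FlipFlop CD8 library, and its difference of 1.11 did not pass (adjusted p = 0.114).

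Transcripts of other cells that a CD8 sort could hold were compared as lists. Of 19 B cell genes none rose and 3 fell, or 2 rose and 1 fell with the scaling factor taken out, and their summed level was 734 to 897 CPM in B6 CD8 and 779 to 937.6 CPM in FlipFlop CD8, so the groups overlapped. Without B6 CD8 replicate 2, 6 fell, and without B6 CD8 replicate 1 or FlipFlop CD8 replicate 1 or 2, 1 fell. *Cd79b*, a signaling chain of the B cell receptor, fell by 0.98 (adjusted p = 0.000122). Of 13 myeloid genes 2 rose and 2 fell, with sums of 87.6 to 104 and 99.4 to 122 CPM, and *Lyz2* at 9.61 ± 5.06 and 15.4 ± 5.68 CPM. Without FlipFlop CD8 replicate 2, 4 rose, and the falls were 0 without FlipFlop CD8 replicate 2 or 3 or B6 CD8 replicate 2 or 3, and 1 without B6 CD8 replicate 1 or with the scaling factor taken out. *Cybb*, the catalytic chain of the phagocyte NADPH oxidase and the one called gene of that list, rose by 3.07 from 2.45 ± 1.10 to 23.6 ± 5.15 CPM. Of 3 red cell genes 2 fell, but none with the scaling factor taken out, and 0 or 1 without any single CD8 library other than B6 CD8 replicate 3. Of 11 NK cell genes 3 rose and 3 fell, with sums of 257 to 290 CPM in B6 CD8 and 95.4 to 156 CPM in FlipFlop CD8. Many of these NK genes are also used by CD8 T cells, and the part of NK cells was not tested. Of 10 γδ T cell genes 6 rose and 1 fell (2 without FlipFlop CD8 replicate 1), with sums of 22.4 to 23.1 and 47.4 to 57.0 CPM. *Tcrg-C4*, a constant gene of the γ chain, rose by 2.74, while *Trdc*, the constant gene of the δ chain, was at 7.32 ± 0.501 and 7.03 ± 0.464 CPM with a difference of -0.06 (adjusted p = 0.725) that was 0.16 without the scaling factor. *Zbtb16*, the PLZF factor of innate-like T cells, had 0, 0 and 0.0663 CPM against 4.31, 10.2 and 9.29 CPM, and *Cd163l1* fell by 2.93 from 5.70 ± 0.877 to 0.317 ± 0.140 CPM.

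**Figure D4:**
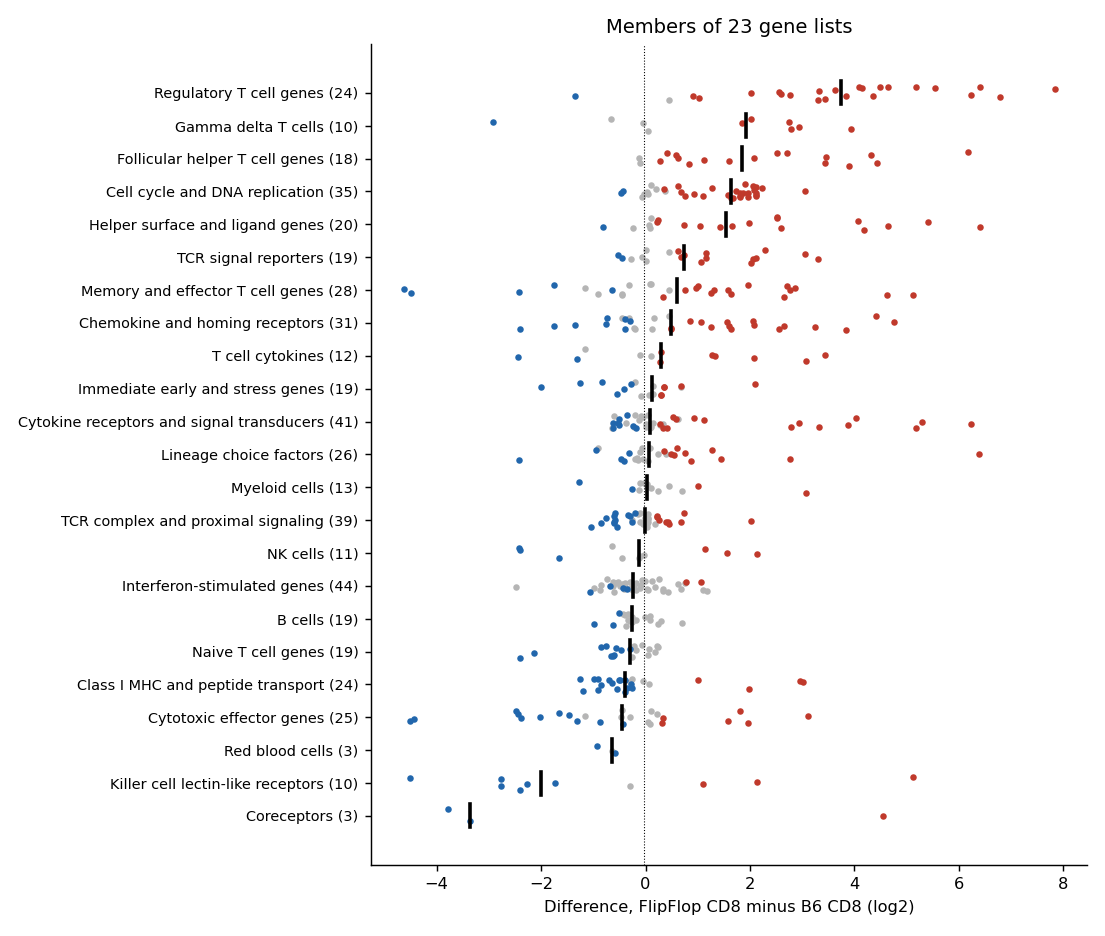
FlipFlop CD8 minus B6 CD8 difference (log2) of the tested members of 23 gene lists, as 1 point per gene, red where the gene rose, blue where it fell, gray where the test was not passed, with a black bar at the list median and the number of genes in parentheses. Regulatory T cell genes have the median farthest to the right (3.74), and TCR complex genes have a median of -0.01 with members from -1.05 to 2.01.

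The CD4 T cells of the same strains gave a comparison that shares no library with the CD8 comparison. It is not fully independent of it, since FlipFlop CD4 and CD8 libraries of the same number deviated together (correlations 0.437, 0.285 and 0.530). Between the CD4 groups the strain changes in the same way and the surface coreceptor is again the same, now CD4. In FlipFlop CD4 minus B6 CD4, 28.5% of all genes passed, 12.9% higher and 15.6% lower. Of the 344 called genes, 274 passed there in the opposite direction, 36 in the same direction and 34 did not pass. Among all 11368 genes tested, 20% passed there with the sign opposite to their CD8 difference and 8.49% with the same sign, whether or not the CD8 difference passed. The opposite genes were 232 of the 283 called higher and 42 of the 61 called lower. The difference between the CD8 and CD4 comparisons was past an adjusted p of 0.05 in 319 of 344 called genes and in 39.5% of all genes. The called genes were chosen on the CD8 difference, which is a term of that quantity, so nothing is read from the count. The median CD4 difference was -1.65 for genes called higher and 1.74 for genes called lower, against 0.00 for all genes.

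The opposite genes included the leading lineage genes. *Zbtb7b* differed by 6.38 between the CD8 groups and by -6.15 between the CD4 groups, where FlipFlop CD4 T cells had 1.87, 2.21 and 2.79 CPM. *Foxp3* differed by 7.84 and -5.45, *Cd40lg* by 5.41 and -4.47, *Nkg7* by -4.42 and 4.79, *Slc6a19* by -5.89 and 5.81, and *Adgrg5* by -4.77 and 6.15. By list, 22 of the 24 regulatory genes fell and 1 rose between the CD4 groups, as did 16 and 1 of the 20 helper genes and 13 and 0 of the 18 follicular helper genes. Of the 25 cytotoxic effector genes 8 rose and 4 fell between the CD4 groups (median 0.15). Of the 10 killer cell lectin-like receptors 1 rose and 2 fell (median -0.106). The reversal of these cytotoxic lists was thus partial at most. Of 35 cell cycle genes 7 fell and 2 rose between the CD4 groups, the others did not pass, and *Mki67* differed by -0.13. *Plac8* and *Tmem108* were called lower between the CD8 groups and differed by 0.55 and -0.09 between the CD4 groups.

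The 36 genes that differed the same way in both comparisons had medians of 3.46 between the CD8 groups and 3.12 between the CD4 groups. Of these 36 genes, 31 were higher and 5 lower in FlipFlop mice, 16 were pseudogenes and 16 protein coding, and they lay on 17 chromosomes, 8 of them (22.2%) on chromosome 17, which carries the MHC and 5.23% of all genes tested, and 3 (8.33%) on chromosome 6, which carries the engineered loci and 4.91% of all genes tested. Pseudogenes were 316 of all genes tested, and 17 of them were called. *Gm8730* had 9.75, 8.14 and 9.85 CPM in B6 CD8 against 898, 1660.4 and 781 CPM in FlipFlop CD8, and in FlipFlop CD4 1359, 2462 and 1172 CPM. *Gm13841* had 0.158, 0.234 and 0.115 CPM against 19.1, 31.3 and 273 CPM, which is a wide spread between FlipFlop CD8 libraries. *Gm9825* had 0.128, 0.0924 and 0.187 CPM against 36.5, 32.9 and 34.2 CPM. Reads of a pseudogene can be shared with its parent gene, so these levels are uncertain.

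Among the other genes of this kind, *Gm9625*, *Gm4737*, *Pcna-ps2* and *Atp6v0c-ps2* rose by 5.55, 5.08, 4.36 and 4.98 between the CD8 groups and by 5.99, 5.03, 4.27 and 4.90 between the CD4 groups. *Gm4864* and *Cpne4* had reads in a single B6 CD8 library each and averaged 23.1 ± 0.368 and 13.3 ± 2.05 CPM in FlipFlop CD8. *Hmga1b* rose by 4.33 and 5.33, and *H2-T10* by 3.01 and 3.12. *Gas5*, a long noncoding RNA that hosts snoRNAs, had 128, 125 and 144 CPM in B6 CD8 against 15.7, 12.997 and 14.0 CPM and was lower by -3.17 and -2.32. The other 4 that were lower in both were *Zbtb8a* (-3.76 and -2.26), *Baiap3* (-3.61 and -1.17), *F2rl1* (-2.78 and -1.69) and *Eps8l1* (-2.73 and -2.98). Whether these differences go with strain, with age or with sequence linked to the engineered alleles cannot be told apart.

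**Figure D5:**
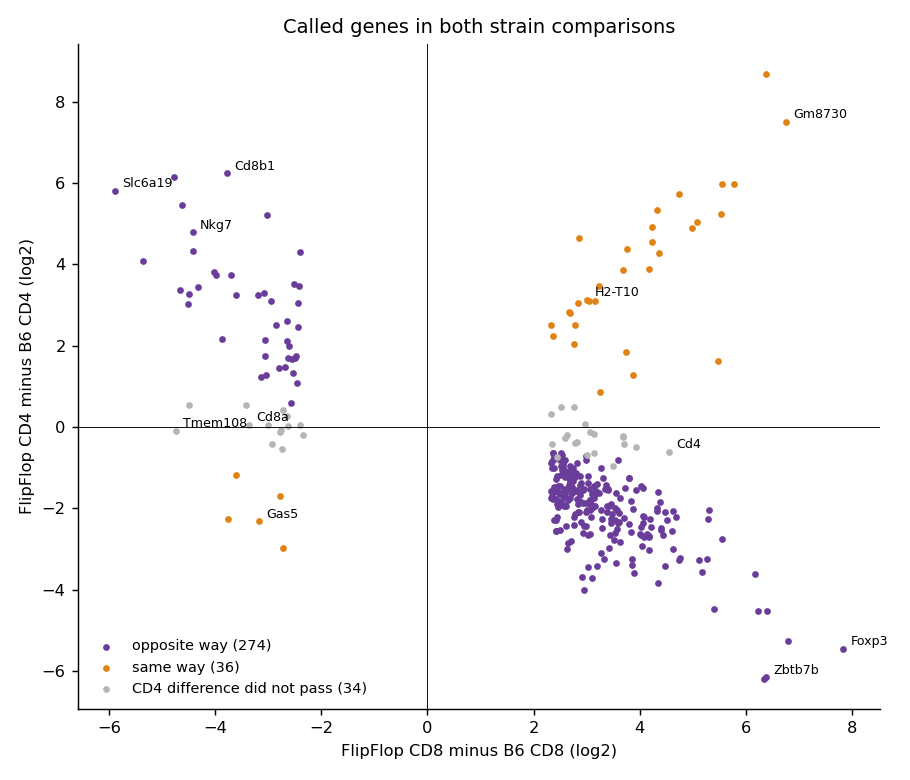
FlipFlop CD8 minus B6 CD8 difference (log2, x axis) against FlipFlop CD4 minus B6 CD4 difference (log2, y axis) of the 344 called genes, colored by whether the CD4 difference passed the opposite way (274), the same way (36) or not at all (34). Most genes lie in the lower right and upper left, with *Foxp3* at 7.84 and -5.45, and a smaller set with *Gm8730* at 6.76 and 7.499 lies along the diagonal.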

How the data were processed

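RNA of sorted LN T cells was made into libraries with a low-input kit. The study's methods name STAR for alignment to mm10, the submitters' processing notes name Trimmomatic and TopHat, and the program that counted reads is not given in the sources used here. The table that the authors deposited holds normalized signal for 12 libraries in 4 groups of 3, namely CPM divided by a TMM factor, so columns sum to different totals. What 1 read is worth was read from the low values, but under 95% of values came out whole (tolerance 0.005 reads), so no count test was run and depths are estimates. Floors cover counting error only.

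Gene types and positions were from GENCODE M21 on GRCm38, which matched all 12809 identifiers. Genes were followed by identifier, since 13 symbols belong to more than 1 gene. None of the 66 pairs of libraries was identical. Differences of log2(CPM + 0.5), which understate the change of low genes, were tested with limma 3.58.1 in R 4.3.3 (1 mean per group over all 12 libraries, eBayes with a trend, two-sided, Benjamini-Hochberg adjustment over 11368 genes). The call rule takes the fold limit of 5 from the study and, of the p limits it gives in different places (0.05 and 0.0001), the stricter. Tables were handled in Python 3.11.15 with numpy 2.4.6 and pandas 2.3.3, and figures drawn with matplotlib 3.10.9.

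The genes, lists and tests were chosen with earlier results of these data known. Named genes are the 10 largest rises and 10 largest falls among called genes with no overlap and at least 10 CPM in the higher group, genes the study names, up to 4 per list plus members given as values, and up to 10 genes that differed the same way in both comparisons. Others, among them *Gm8210*, *Rpl29* and *B2m*, were chosen after their values were seen. FlipFlop CD4 and CD8 libraries of the same number deviated together (correlations 0.437, 0.285 and 0.530). Both enter the difference of differences, whose count the block did not move by over 1.5 times.

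The fit was tested on simulated data. Alternatives were other pseudocounts, filters, scalings, call rules and designs, and leaving out each library. Some genes of the lists are not reported here by name.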

Additional observations from a re-analysis of the deposited data

Results flagged for a closer look

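The strain difference of CD8 T cells differed from that of CD4 T cells (limma, adjusted p under 0.05 for the difference of differences) in 319 of the 344 called genes, in 17 of the 20 genes named by size and in 119 of the 153 named genes tested, and in 39.5% of all genes tested. The called genes and those named by size, and many of the other named genes, were chosen on the CD8 difference or with their values known, and that difference is a term of the quantity tested, so nothing is read from these counts. Some of these genes were higher in FlipFlop CD8 and lower in FlipFlop CD4 T cells than in B6. As the CD8 difference minus the CD4 difference on the log2 scale, these were *Foxp3* with 13.28, *Zbtb7b* with 12.53, *Ly6c1* with 12.53, *Lrrc32* with 12.07, *Tnfrsf4* with 10.91, *Il2ra* with 10.75 and *Maf* with 9.79. The genes lower in FlipFlop CD8 T cells were *Slc6a19* with -11.70, *Adgrg5* with -10.92, *Ly6c2* with -10.09, *Bend4* with -9.45, *Bace1* with -8.75, *Gm43698* with -8.03, *Lcn4* with -7.76, *Klrd1* with -7.52, *Plac8* with -5.04 and *Tmem108* with -4.65. In *Plac8* and *Tmem108* the CD4 difference itself did not pass the test.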

How the results depend on the processing

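The count of called genes was 333 to 353 when single libraries were left out (274 to 293 higher, 58 to 66 lower), with 265 to 285 opposite and 35 to 41 the same way between the CD4 groups and 308 to 329 whose differences differed, and 4100 to 4828 genes passed the adjusted p (2053 to 2291 higher, 2033 to 2549 lower). These counts of genes moved by over 1.5 times under 5 settings. A pseudocount of 0.1 called 536 genes (453 higher, 413 opposite, 505 with differing differences). A filter of 5 CPM on the mean called 204 (159 higher, 165 opposite, 189 differing), with 1590 higher at the adjusted p, where fewer genes are tested. A 2-fold limit called 1135 (889 higher, 246 lower, 776 opposite, 73 the same way, 1086 differing), and folds of mean CPM called 574 (485 higher). Without the TMM factor 4473 genes were higher and 1124 lower at the adjusted p, while 383 were called. The cause was not tested. Some list counts moved as well. With no filter 12 T cell cytokine genes rose instead of 7. With the filter of 5 CPM, 1 killer cell lectin-like receptor fell instead of 6, and no γδ T cell gene rose instead of 6. The sign turned for *Trdc* (0.16) and *Cd3e* (0.085) without the TMM factor, and for *Cd69* with single libraries left out (-0.17 to 0.12).

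The replicate numbers did not pair B6 CD8 with FlipFlop CD8 libraries by the limit of 0.1 (correlations 0.073, 0.144 and 0.130), although each library correlated best with its own number. With the number as a block 348 genes were called and 5622 passed the adjusted p, with 279 opposite, 38 the same way and 321 with differing differences (322 with strain and number as a random effect). Of the interferon-stimulated genes, 8 rose and 13 fell with the block, among them *Mx2* (1.11, adjusted p = 0.0382) and *Oasl2* (-2.48, adjusted p = 0.00543), and *Cd3e* passed too (-0.15, adjusted p = 0.0419). Values under 3 reads are not resolved, and the reads of pseudogenes, *Ly6c* and MHC copies cannot be assigned with certainty.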

Other observations

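*Rpl29*, a protein of the large ribosomal subunit that is not in any of the lists, was low in FlipFlop T cells and uneven between their libraries. It had 1155, 1123 and 1126 CPM in B6 CD8 against 48.5, 441 and 42.3 CPM in FlipFlop CD8, a difference of -3.54 (SE 0.91, adjusted p = 0.00726). The FlipFlop CD4 libraries had 60.3, 591 and 54.5 CPM, so replicate 2 was the high library of both FlipFlop groups. The same library numbers were not the high ones at *B2m*, where replicate 1 was. Other genes, among them members of the helper surface and TCR signal lists, also rose in FlipFlop CD8 T cells. *Cd83*, a marker of activated lymphocytes and dendritic cells, rose by 2.59 from 8.99 ± 0.656 to 56.5 ± 3.65 CPM. *Lag3*, an inhibitory receptor that binds MHC-II, rose by 2.51 from 5.32 ± 1.33 to 32.5 ± 5.65 CPM. *Spry1*, an inhibitor of receptor kinase signals, rose by 2.30. *Pstpip2* had reads in a single B6 CD8 library and 25.6, 14.9 and 30.7 CPM in FlipFlop CD8.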
